A study of Tremella fuciformis and Annulohypoxylon stygium and Tremella fuciformis
Annulohypoxylon stygium with 5 samples.

Results

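The transcript described here is CL5907.Contig2 (CL5907.Contig2_All in the table) of the white jelly fungus Tremella fuciformis, 1 unigene (a sequence assembled de novo from the reads) of 42507 in the deposited table and of 15354 assigned to this fungus. It was picked by its identifier, because its level stood out in T. fuciformis after contact with Annulohypoxylon stygium, the ascomycete with which it is cultivated. The levels that led to the choice are therefore given as a description, with no test. Its name comes from its nearest hit in the Nr protein database, a riboflavin-aldehyde forming enzyme of the smut-fungus relative Moesziomyces antarcticus.

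All cultures were wild type mycelia. T. fuciformis was sampled after contact with A. stygium, 1 week on, and mixed mycelia holding both fungi were also sampled 1 week after contact. T. fuciformis grown alone was 2 weeks old. A. stygium was sampled 1 week after contact with T. fuciformis and, grown alone, at 1 week. Each condition had 1 library, so n = 1 throughout, there is no replicate spread to judge a difference by, and no p-value is given. For the cultures after contact the labels give the time since contact and not the total age, so culture age and contact cannot be told apart.

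Riboflavin-aldehyde forming enzyme was first purified from the mushroom Schizophyllum commune, where it oxidises the terminal alcohol group of the riboflavin side chain to an aldehyde. Proteins annotated with this name in fungi are typically small and secreted, with a double-psi beta-barrel fold that they share with expansins and with barwin-type plant defence proteins. In the button mushroom Agaricus bisporus a transcript of this name was found among those regulated during fruit body development.

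The name of CL5907.Contig2 rests on little. Of 7 annotation columns in the table, 2 held a hit, Nr with an e-value of 3.2e-14 and InterPro with the PANTHER family PTHR31836 at 1.8E-14. There was no hit in SwissProt, Nt, KEGG, KOG or GO. Among 12509 T. fuciformis unigenes with an Nr hit, 8.47% had a weaker one. The name is thus that of the nearest relative in a database, and whether the protein oxidises riboflavin was not measured. The deposited table holds no sequences, so none is shown.

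CL5907.Contig2 was abundant in T. fuciformis after contact and less so in the other libraries. It had 1837 FPKM (fragments per kilobase of unigene scaled to library size) in T. fuciformis after contact, 373 FPKM in the mixed mycelia and 210.4 FPKM in T. fuciformis alone. In A. stygium it was listed at 0.20 FPKM after contact and at 0.60 FPKM alone. The order of the levels was thus T. fuciformis after contact, mixed mycelia, T. fuciformis alone and then both A. stygium libraries, and with 1 library each it cannot be said which neighbours in this order lie within the replicate spread. The A. stygium values were 0.0109% of the level in T. fuciformis after contact and 0.285% of the level in T. fuciformis alone. As shares of a whole library, a different measure, all T. fuciformis unigenes together made up 0.0670% of the FPKM in A. stygium after contact and 0.0804% in A. stygium alone. Assignment to T. fuciformis required low levels in the A. stygium libraries, so these shares are low by construction.

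**Figure D1:**
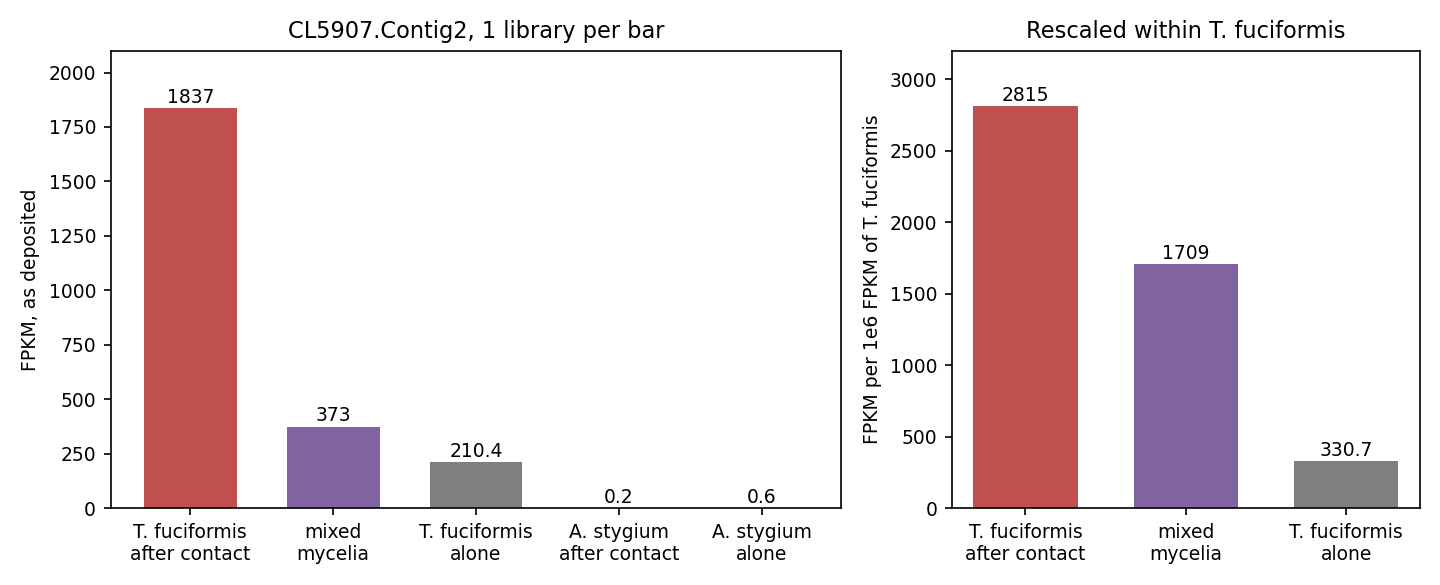
Level of CL5907.Contig2 by library, 1 library per bar with no error bars. The left panel gives FPKM as deposited, 1837 in T. fuciformis after contact, 373 in the mixed mycelia and 210.4 in T. fuciformis alone, with both A. stygium libraries under 1; the right panel gives the same levels per 1e+06 FPKM of T. fuciformis unigenes, where the mixed mycelia reach 1709.

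The cluster of assembled sequences to which it belongs holds 1 other contig. CL5907.Contig1, which has no hit in Nr or InterPro, was at 1.91 FPKM in T. fuciformis after contact. It was listed at 0 in the mixed mycelia, in T. fuciformis alone and in both A. stygium libraries. Reads can be divided between contigs of 1 cluster. Here the second contig was so low that summing both left the log2 ratio after contact at 3.09.

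T. fuciformis after contact was set beside T. fuciformis alone to see how its transcripts differ after contact with the partner. A. stygium unigenes made up 0.0626% of the FPKM in T. fuciformis after contact and 0.0535% in T. fuciformis alone. Assignment to A. stygium required low levels in these libraries, so both shares are low by construction. Levels were rescaled so that all T. fuciformis unigenes summed to 1e+06 in each library. On this scale CL5907.Contig2 had 2815 after contact and 330.7 alone, 8.51-fold higher after contact. The log2 ratio, taken after adding a pseudocount of 1, was 3.09. Of the 15354 unigenes compared, 2.43% passed 4-fold upward and 1.07% passed it downward. CL5907.Contig2 had the 38th largest ratio, and since this ratio drew attention to it nothing further is read from its place.

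Its place among abundant transcripts shifted with it. It ranked 15 of 15354 by level after contact and 493 in the culture grown alone, and made up 0.281% and 0.0331% of all T. fuciformis FPKM. After contact, the unigenes next to it by level with a usable description were a type 11 methyltransferase, Unigene10339, at 1948 FPKM and CL2899.Contig3, named TIM, at 1737 FPKM. In the culture grown alone they had 613 and 2110 FPKM. The next described unigenes in the culture grown alone were exportin-1 (Unigene6007), which carries proteins out of the nucleus, at 210.45 FPKM and the ubiquitin-conjugating enzyme E2 6 (Unigene10678) at 210.33 FPKM. After contact these had 198 and 188 FPKM. CL5907.Contig2 was chosen for its level after contact, so nothing is read from their lying below it there.

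Among the described unigenes it was the fifth by level after contact. Above it were glyceraldehyde-3-phosphate dehydrogenase of glycolysis (Unigene83), with 2563 FPKM after contact and 2161 FPKM alone, and the mitochondrial ADP,ATP carrier (CL4146.Contig2), with 2201 and 2311 FPKM. The GPI anchor biosynthesis-related CL1929.Contig2 had 2140 FPKM after contact and 4472 FPKM alone. The methyltransferase Unigene10339, described above, was the remaining one, with a log2 ratio of 1.63.

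A total of 44 T. fuciformis unigenes had at least 1000 FPKM after contact, a level chosen after the values were seen. Of these, 5 were at least 4-fold higher than in the culture grown alone, where 2.43% of all 15354 unigenes were. The minimum is set on the library after contact, which favours unigenes that are high there. CL5907.Contig2 and most others of the 5 are among the 44 only through that library, so nothing is read from this count. The other 4 were CL2714.Contig3, with 1377 FPKM after contact and 200.1 FPKM alone, Unigene7518 (11691 and 1938 FPKM), Unigene4641 (2573 and 453 FPKM) and the cytochrome P450 Unigene11669, named after DIT2 (1024 and 198 FPKM). The first 3 of these 4 have no informative description. In budding yeast DIT2 takes part in building the dityrosine layer of the spore wall.

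The mixed mycelia, in which both fungi were harvested together, were then compared with T. fuciformis alone. The library of T. fuciformis alone also enters the ratio after contact that drew attention to CL5907.Contig2. The ratios are therefore not independent, and this one is given as a description. T. fuciformis unigenes made up 36.4% of the FPKM of the mixed library and A. stygium unigenes 59.0%, so levels in the mixed library are multiplied by 2.91 relative to the culture grown alone. CL5907.Contig2 then had 1709 in the mixed mycelia and 330.7 in T. fuciformis alone, 5.17-fold higher in the mixed mycelia, with a log2 ratio of 2.37. Of 14206 unigenes, 4.98% passed 4-fold upward and 3.56% downward. It ranked 563 by ratio and 35 by level, with 0.171% of T. fuciformis FPKM. As deposited, 373 FPKM in the mixed mycelia against 210.4 FPKM in T. fuciformis alone is 1.77-fold, a log2 ratio of 0.82 that does not pass 4-fold. Without rescaling the median of all T. fuciformis unigenes in that comparison was -1.42, against -0.17 with it. In such a mixture, fewer T. fuciformis cells and less RNA per cell cannot be told apart.

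Next to it by level in the mixed library were a ubiquitin-conjugating enzyme of the 16 kDa class, CL6296.Contig3, at 376 FPKM and again CL2899.Contig3 at 371 FPKM. In T. fuciformis alone these had 956 and 2110 FPKM, against 210.4 FPKM for CL5907.Contig2. CL5907.Contig2 was chosen because its level stood out after contact, so nothing is read from its lying below them there.

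Between the 2 samples taken after contact, CL5907.Contig2 was lower in the mixed mycelia, at 1709 against 2815 on the rescaled scale in T. fuciformis after contact, which is 0.607-fold and a log2 ratio of -0.72. At least 2-fold lower in that comparison were 13.6% of 14700 unigenes, and CL5907.Contig2 was not among them. The median of all unigenes was -0.16.

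The family to which InterPro assigns CL5907.Contig2 holds 8 unigenes in the table, 6 of T. fuciformis and 2 of A. stygium. It was looked up after the values were seen. In T. fuciformis the leading member was not the same in all libraries. CL5907.Contig2 held 68.9% of the summed FPKM of the 6 members after contact and 59.7% in the mixed mycelia, against 15.5% in T. fuciformis alone. Unigene11675 held 27.1% after contact and 36.8% in the mixed mycelia, against 76.6% in T. fuciformis alone. CL5907.Contig2 was chosen for its level after contact and enters each sum, so the shift in shares follows in part from that choice.

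Unigene11675, whose hit is a conserved protein of unknown function, had 722 FPKM in T. fuciformis after contact, 230.1 FPKM in the mixed mycelia and 1038 FPKM in T. fuciformis alone. After rescaling these are 1107, 1054 and 1631, and the log2 ratios were -0.56 after contact and -0.63 in the mixed mycelia. It was thus lower in both libraries in which CL5907.Contig2 was higher, by less than 2-fold. Both comparisons share the library of T. fuciformis alone.

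The other 4 members were lower in level. Unigene8415, the single member whose nearest hit lies in the genus Tremella, had 78.6 FPKM after contact, 16.0 FPKM in the mixed mycelia and 93.7 FPKM alone. CL7624.Contig1 had 17.3, 3.18 and 9.18 FPKM in the same order, and CL7624.Contig2 of the same cluster had 7.41, 2.04 and 2.34 FPKM. Unigene8028 had 2.06, 0.88 and 2.20 FPKM. Among the 5 members other than CL5907.Contig2, 1 was at least 2-fold higher after contact, where 10.4% of all unigenes were, and 0 were at least 2-fold lower, where 5.26% were. That member was CL7624.Contig2, with log2 ratios of 1.40 after contact and 1.15 in the mixed mycelia, and it starts from a low level. As deposited it had fewer FPKM in the mixed mycelia than alone. In the mixed mycelia it was again the only one of the 5 past 2-fold, against 12.6% of all unigenes higher and 13.2% lower. Unigene8415 was just inside at a log2 ratio of -0.999. CL7624.Contig1, with more FPKM than the other contig of its cluster, had log2 ratios of 0.83 after contact and 0.013 in the mixed mycelia. The contigs of that cluster were not summed here, so both counts depend on the lower contig alone. Without CL5907.Contig2 the rescaled sum of the family was 1268 after contact, 1155 in the mixed mycelia and 1800.2 in T. fuciformis alone, and with it 4083, 2864 and 2131.

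**Figure D2:**
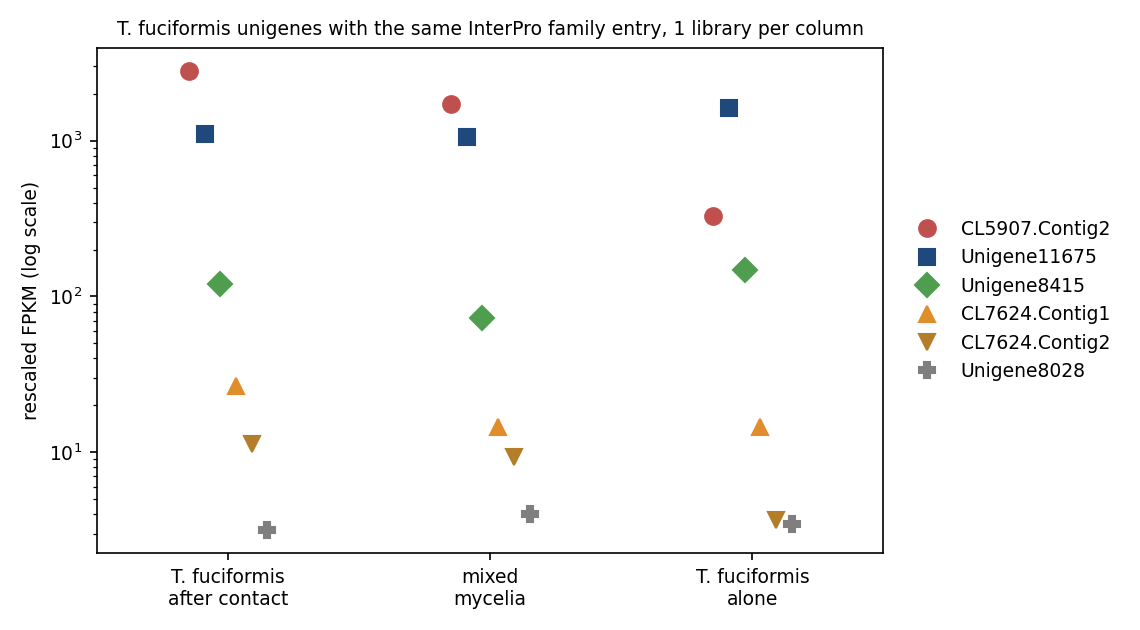
Rescaled FPKM of the 6 T. fuciformis unigenes with the InterPro family PTHR31836, on a log axis, 1 library per column with no error bars. CL5907.Contig2 stands above Unigene11675 after contact (2815 and 1107) and in the mixed mycelia (1709 and 1054) and below it in T. fuciformis alone (330.7 and 1631), while the other 4 members stay under 200.

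The family members also share the source of their nearest hits. For 5 of the 6, CL5907.Contig2 included, the first Nr hit lay in a genus of smut fungi and their relatives, Moesziomyces, Sporisorium or Melanopsichium. Over all T. fuciformis unigenes with an Nr hit this was so for 50 of 12509, or 0.400%, while 57.4% had their first hit in Tremella. The genera counted as smut fungi were listed after the hits were seen. A pair of the 5 are contigs of 1 cluster, and 3 of them share 1 hit, so they are not independent.

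Of all unigenes, 2 bear the name riboflavin-aldehyde forming enzyme, 1 in each fungus. The one of A. stygium, Unigene3502, has its nearest hit in Rosellinia necatrix (e-value 1.1e-29) and belongs to the same InterPro family. It was low, with 3.24 FPKM in A. stygium after contact, 2.31 FPKM in the mixed mycelia and 10.2 FPKM in A. stygium alone, and it was listed at 0 in both T. fuciformis libraries. Rescaled to all A. stygium unigenes, these are 5.998, 6.53 and 19.7. The log2 ratio was -1.56 after contact, where 11.3% of 18667 A. stygium unigenes were at least 2-fold lower, and -1.46 in the mixed mycelia, where 14.8% were. Unigene3502 was thus lower after contact while CL5907.Contig2 of the partner was higher. With a pseudocount of 10 the log2 ratios of Unigene3502 were -0.89 after contact and -0.84 in the mixed mycelia, no longer past 2-fold. The difference between the fungi was not tested, and CL5907.Contig2 was chosen for its level after contact.

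The second family member of A. stygium, Unigene2229, is named after a barwin-like endoglucanase. It had 4.74 FPKM in A. stygium after contact, 33.9 FPKM in the mixed mycelia and 19.0 FPKM in A. stygium alone, with log2 ratios of -1.94 and 1.37. In the mixed mycelia 11.9% of A. stygium unigenes were at least 2-fold higher. Its level was the lowest of the 3 after contact and the highest in the mixture. It was also the only unigene of either fungus found by the search words for expansins, barwin and other double-psi beta-barrel proteins, so that 0 T. fuciformis unigenes were named by these words.

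The synthesis and uptake of riboflavin, the substrate in the enzyme's name, was covered by 12 T. fuciformis unigenes. Fungi make riboflavin from GTP and ribulose phosphate, and turn it into the cofactors FMN and FAD. After contact 0 of the 12 passed 2-fold in either direction, where 10.4% of all unigenes passed it upward and 5.26% downward, so for so short a list the count is near that of all unigenes. Their log2 ratios ran from -0.45 to 0.51 around a median of -0.18, against a median of -0.012 over all unigenes. Riboflavin synthase (CL4699.Contig2), which catalyses the last step to riboflavin, had 107 FPKM after contact, 59.4 FPKM in the mixed mycelia and 80.97 FPKM alone. Lumazine synthase (Unigene6666), which makes its substrate and had the highest mean level of the list, had 106 FPKM after contact, 21.6 FPKM in the mixed mycelia and 122 FPKM alone.

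In the mixed mycelia 3 of the 12 were at least 2-fold higher, 1 was at least 2-fold lower and 8 lay within 2-fold, where 12.6% of all unigenes were higher and 13.2% lower. The list's median was 0.20 against -0.17 over all. With at least 10 FPKM required, 1 was higher and the median was -0.065, and with contigs summed the median was -0.0043, so the list showed no stable direction. As deposited, without rescaling, the list's median was -1.22 against -1.42 over all, with 0 members at least 2-fold higher and 6 lower. The 3 that passed upward after rescaling, all with fewer FPKM as deposited in the mixed mycelia than alone except CL3063.Contig3, were riboflavin synthase with a log2 ratio of 1.09, a dihydroxybutanone phosphate synthase (CL3063.Contig3) with 1.68 and a contig named after the yeast riboflavin transporter MCH5 (CL1339.Contig3) with 1.05. The last pair had 4.98 and 1.68 FPKM in the mixed mycelia, and they are named because their values were seen to pass. The one lower was another MCH5-like unigene, CL8024.Contig1, with 75.3 FPKM after contact, 7.35 FPKM in the mixed mycelia and 51.3 FPKM alone, and log2 ratios of 0.51 and -1.24. Riboflavin kinase (Unigene6473), which makes FMN, had 39.7, 15.9 and 48.4 FPKM, and the FAD synthase CL5517.Contig2 had 23.2, 8.84 and 25.9 FPKM.

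**Figure D3:**
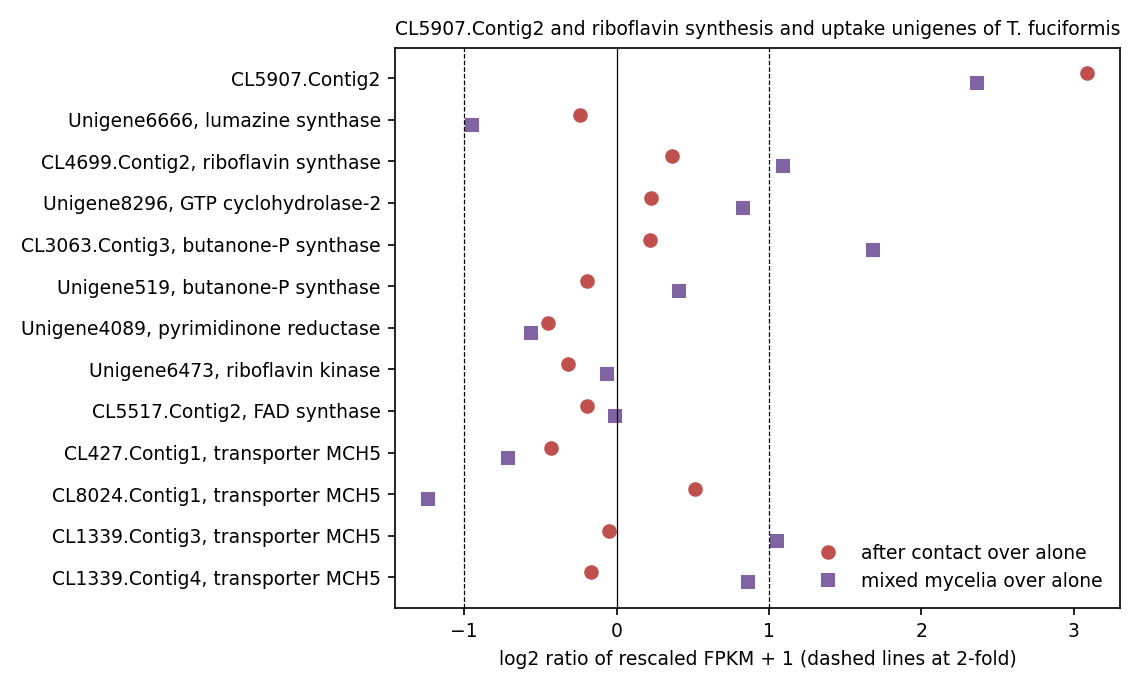
Log2 ratios of CL5907.Contig2 and of the 12 T. fuciformis unigenes named for riboflavin synthesis, cofactor synthesis or riboflavin transport, after contact over alone (circles) and mixed mycelia over alone (squares), from 1 library per condition, with dashed lines at 2-fold. After contact all 12 lie between -0.45 and 0.51, while CL5907.Contig2 is at 3.09; in the mixed mycelia they spread from -1.24 to 1.68, with CL5907.Contig2 at 2.37.

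Enzymes that use flavin to oxidise alcohols and sugars were few in T. fuciformis. The search words found 5 unigenes, of which 2 are xylosylphosphotransferases caught by the word pyranose. After contact 0 of the 5 passed 2-fold, against 10.4% of all unigenes upward and 5.26% downward, and the median log2 ratio of 0.0092 was that of one of these transferases. In the mixed mycelia 1 was higher and 1 lower, against 12.6% and 13.2% of all, and the median of -0.24 was 0.54 with at least 10 FPKM required and -1.03 as deposited. The glucose oxidase CL5206.Contig2, of a family that releases hydrogen peroxide, had 166 FPKM after contact, 114 FPKM in the mixed mycelia and 107 FPKM alone, with log2 ratios of 0.60 and 1.63. It was the one at least 2-fold higher in the mixed mycelia. The alcohol oxidase Unigene701, with 1.32 FPKM after contact and 1.36 FPKM alone, was listed at 0 in the mixed mycelia and was the one lower. As deposited, 3 of the 5 passed 2-fold downward and 0 upward.

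Of the small secreted and surface proteins named by the search words, 5 belonged to T. fuciformis, 3 cysteine-rich secreted proteins and 2 thaumatin family proteins. After contact 1 was at least 2-fold higher and 0 lower, against 10.4% and 5.26% of all unigenes, with a median of -0.19. In the mixed mycelia 2 were higher and 0 lower, against 12.6% and 13.2% of all, with a median of -0.60. That median was 1.03 with contigs summed and -1.95 as deposited, with 3 lower, and with at least 10 FPKM required 0 were higher. The thaumatin family protein CL4670.Contig1 had 22.3 FPKM after contact, 8.36 FPKM in the mixed mycelia and 2.44 FPKM alone, with log2 ratios of 2.86 and 3.02. The cysteine-rich protein CL5492.Contig2, which had the highest mean level of the list, had 22.5, 5.61 and 25.1 FPKM. CL5492.Contig1 of the same cluster is counted as a separate member of the list, except where contigs are summed.

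The unigenes whose pattern was most like that of CL5907.Contig2 were found by the distance between pairs of log2 ratios, after contact over alone and mixed mycelia over alone. Both ratios share the library of T. fuciformis alone, and 3 libraries enter in all. Of 8655 other T. fuciformis unigenes that reached 10 FPKM in any of the 3 libraries, 6 lay within a distance of 0.5 and 20 within 1. Among the 10 nearest with different descriptions, 1 reached 100 FPKM after contact, the cytochrome P450 Unigene11669 with 1024 FPKM after contact, 359 FPKM in the mixed mycelia and 198 FPKM alone. A likeness of pattern over so few libraries is a description of these values.

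The phosphate transporter PHO84-like Unigene3813 had 47.7 FPKM after contact, 13.2 FPKM in the mixed mycelia and 6.37 FPKM alone, with log2 ratios of 2.75 and 2.48. The nucleoside transporter Unigene8213 of the NCS1 family had 44.1, 13.8 and 6.31 FPKM, and the polyamine transporter CL7210.Contig2 had 32.0, 7.73 and 5.23 FPKM. With both contigs of its cluster summed, the polyamine transporter's log2 ratios were 1.52 and 1.05 in place of 2.44 and 1.98, so its likeness to CL5907.Contig2 depends on that 1 contig. The alpha-glucoside symporter CL3588.Contig2 and the maltose permease MAL31-like Unigene1896, both sugar carriers, had log2 ratios after contact of 2.92 and 2.84. The enzymes among the 10, beside those named above and below, were formate dehydrogenase (CL3589.Contig1), which oxidises formate to carbon dioxide, with 68.2, 21.4 and 8.90 FPKM, and the aldo/keto reductase Unigene3520, with 28.3, 8.28 and 2.14 FPKM. With the 3 contigs of its cluster summed, formate dehydrogenase had log2 ratios of 2.37 and 2.14 in place of 2.81 and 2.73.

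The thaumatin family protein CL4670.Contig1, described above, was also among the 10. With the 3 contigs of its cluster summed, its log2 ratios were 2.18 and 2.84 in place of 2.86 and 3.02. The nearest of all was a contig of DNA polymerase gamma, CL3594.Contig1, at a distance of 0.105, but its log2 ratio after contact was 0.38 in place of 3.19 once the 4 contigs in that cluster were added up.

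**Figure D4:**
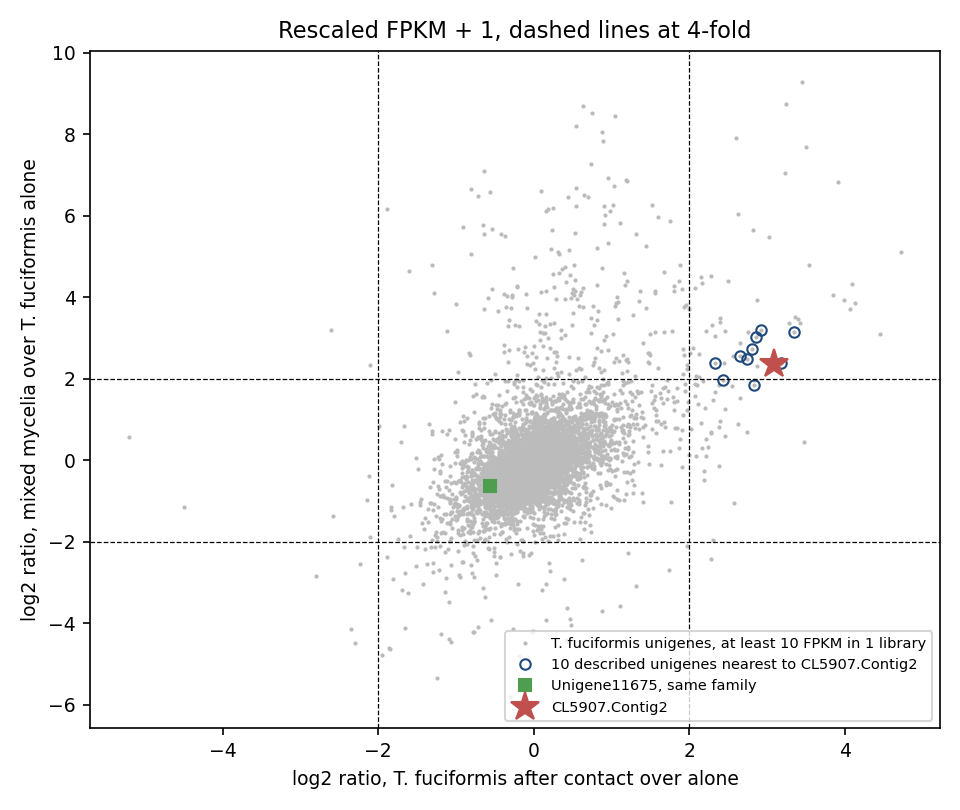
Log2 ratios of T. fuciformis unigenes reaching 10 FPKM in any of 3 libraries, after contact over alone on the x axis and mixed mycelia over alone on the y axis, from 1 library per condition, with dashed lines at 4-fold. CL5907.Contig2 (star) lies at 3.09 and 2.37 with the 10 nearest described unigenes (open circles) around it, and Unigene11675 of the same family (square) lies at -0.56 and -0.63.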

How the data were processed

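RNA was taken up in Trizol and sequenced from Illumina libraries, per the labels' protocols. The authors deposited 1 table of FPKM per unigene and library with database hits. Nothing in the sources used here names the assembler, aligner or counter, and read depth is unknown. In low unigenes of the other fungus, 19 of 94 value pairs in the 2 T. fuciformis libraries and 18 of 80 in the 2 A. stygium libraries were equal (log2 ratio within 0.005), values between 0.2 and 3 FPKM. The table held 0 unused value columns.

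Assignment to a fungus required a maximum of 1 FPKM or more in its single-fungus libraries that was also 10 times the maximum in those of the partner. The mixed library took no part. Ratios were log2((x + 1)/(y + 1)) of FPKM rescaled to 1e+06 per fungus, over unigenes of at least 1 FPKM in 1 of the libraries compared (Python 3.11.15, pandas 2.3.3). Descriptions are Nr names or, where uninformative, SwissProt names with an e-value of at most 1e-20. Named unigenes were the cluster, rows of the same Nr name, the 10 nearest patterns, the 5 most abundant described, neighbours by level, and the most abundant and most changed list members. The unigene and the 4 lists were chosen with earlier results of these data known.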

Additional observations from a re-analysis of the deposited data

Results flagged for a closer look

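The 2 unigenes named riboflavin-aldehyde forming enzyme went opposite ways after contact, each in its only pair of libraries. CL5907.Contig2 of T. fuciformis had a log2 ratio of 3.09 after contact over alone. Unigene3502 of A. stygium had a log2 ratio of -1.56, from 3.24 FPKM after contact and 10.2 FPKM alone. The difference was not tested, since each condition has 1 library. CL5907.Contig2 was chosen for its level after contact, so only the direction of Unigene3502 was open. At least 2-fold lower after contact were 11.3% of 18667 A. stygium unigenes. Unigene3502 is low, and with a pseudocount of 10 its ratio was -0.89, no longer past 2-fold.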

How the results depend on the processing

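The log2 ratio of CL5907.Contig2 after contact over alone stayed between 3.05 and 3.15 in 6 alternatives (pseudocounts of 0.1 and 10, no rescaling, rescaling to the median ratio, contigs summed, assignment at 2-fold). Without rescaling the ratio of the mixed mycelia to T. fuciformis alone was 0.82 in place of 2.37, and that to T. fuciformis after contact was -2.30 in place of -0.72; in the other 5 alternatives these ran from 2.34 to 2.52 and from -0.72 to -0.63. Ranks by level moved by less than 1.5 times. Ranks by ratio moved more, and apart from the settings that rank fewer or more unigenes the cause was not tested. After contact over alone the rank of 38 became 693 with a pseudocount of 0.1, 19 without rescaling, 14 with contigs summed and 19 with at least 10 FPKM. Mixed over alone, the rank of 563 became 336 with contigs summed, 230 with at least 10 FPKM and 1384 with no minimum. Mixed over after contact, the rank of 11862 became 7260 with contigs summed and 7383 with at least 10 FPKM, where fewer unigenes are ranked. The number of unigenes at least 4-fold higher ran from 87 to 1012 after contact and from 185 to 1601 in the mixed mycelia, and at least 4-fold lower from 10 to 494 and from 89 to 2302. For Unigene11675, tried without rescaling after seeing the data, the ratio of the mixed mycelia to T. fuciformis alone was -2.17 in place of -0.63. Of the lists, medians in the mixed mycelia changed sign under at least 1 alternative for riboflavin synthesis, flavin oxidases and small secreted proteins. The list of expansins and barwin relatives gave no T. fuciformis value. No paired analysis was possible because each group has 1 library. Depth is unknown, so no interval is given.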

Other observations

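Some unigenes near CL5907.Contig2 in pattern had nearest hits that are neighbours in the numbering of a yeast's protein set. Among the 40 unigenes nearest in pattern, hits whose database numbers followed each other within 10 were looked for after the values were seen. In Trichosporon oleaginosus 3 hits were numbered consecutively, those of the aldo/keto reductase Unigene3520, the flavonol synthase-like oxygenase Unigene7021 and the NCS1 nucleoside transporter Unigene8213. Unigene7021 had 119 FPKM in T. fuciformis after contact, 42.4 FPKM in the mixed mycelia and 11.4 FPKM in T. fuciformis alone. In Trichosporon asahii the hits of the pmd1-like drug exporter CL6773.Contig2 and of Unigene11739, which has no description, were numbered consecutively, and that of the cytochrome P450 Unigene11669 came 5 numbers later. CL6773.Contig2 had 227 FPKM after contact, 65.7 FPKM in the mixed mycelia and 51.8 FPKM alone, and Unigene11739 had 201 FPKM, 56.4 FPKM and 45.4 FPKM. Where these unigenes lie in the genome of T. fuciformis was not analysed here, and the number of such runs in other sets of 40 was not counted.

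The abundant unigenes without an informative description did not all share the pattern of CL5907.Contig2. Unigene7518, the most abundant of the 5 that had at least 1000 FPKM and were at least 4-fold higher after contact, had 11691 FPKM after contact, 2345 FPKM in the mixed mycelia and 1938 FPKM alone, with log2 ratios of 2.56 and 1.82. Unigene4641 had 2573 FPKM, 235 FPKM and 453 FPKM in the same order, and CL2714.Contig3 had 1377 FPKM, 112 FPKM and 200.1 FPKM. After rescaling their ratios in the mixed mycelia over alone were 0.59 and 0.70, against 2.37 for CL5907.Contig2.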
